A study of Mus musculus with 6 samples.

Results

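Malat1, Neat1 and Kcnq1ot1, long noncoding RNAs of the nucleus, and Gas5, Snhg1, Snhg8 and Snhg12, host genes of small nucleolar RNAs (snoRNAs), were followed in bone marrow neutrophils of naive mice and of mice with orthotopic lung cancer. The members are a list of names, drawn up with earlier results of these data known. Of the 7, 4 had a row among the 38887 gene identifiers of the count table: Malat1, Neat1, Gas5 and Snhg12. Snhg1, Snhg8 and Kcnq1ot1 were not analysed here, since their identifiers in the annotation that was used matched no row.

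The 3 groups were naive mice without tumor, mice 1 week after LL2 injection (one-week LL2 mice) and mice 3 weeks after it (three-week LL2 mice). Ly6G+ cells of their bone marrow were isolated with beads, to a purity above 95% according to the labels. LL2 is a Lewis lung carcinoma line that carries luciferase and forms tumors in the lung after intravenous injection. The labels give no strain, sex or age; the methods describe C57BL/6 mice bought at an age of 6 to 8 weeks without tying them to these libraries. Each group had 2 libraries of total RNA, which the labels number as replicate mice, so that p-values measure the spread between these few samples.

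Long noncoding RNAs act as RNA and are not translated. Malat1 lies in nuclear speckles, where splicing factors gather, and Neat1 is the scaffold of paraspeckles, bodies that form around its long isoform together with RNA-binding proteins. Kcnq1ot1 is an imprinted antisense RNA that silences neighbouring genes on the paternal chromosome. Gas5 and the Snhg genes carry snoRNAs, guides for the modification of ribosomal RNA, in their introns. Their spliced RNA is exported, engaged by ribosomes and removed by nonsense-mediated decay. Neutrophils maturing in the marrow wind down ribosome production.

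Library totals lay between 11994158 and 14127919 counts, and the detection floor of 3 counts equalled 0.2 to 0.245 CPM, counts scaled to a common library total. Such floors reflect counting error alone. CPM use totals multiplied by TMM factors, which ran from 0.913 to 1.07. All 13 neutrophil markers were detected and summed to between 287900 and 352200 CPM, against sums of at most 1494 CPM for each list of other cell types. Some of these lists moved with the groups. The 12 B lineage markers summed to between 58.5 and 91.8 CPM in naive and one-week LL2 mice and to 14.5 and 23 CPM in three-week LL2 mice. The 9 markers of eosinophils, basophils and mast cells reached 48.4 and 51.9 CPM in one-week LL2 mice, with 22.5 to 30.3 CPM in the other groups. The 8 markers of neutrophil precursors ran from 202 to 284 CPM in naive and one-week LL2 mice and reached 346 and 454 CPM in three-week LL2 mice. Of these 8, 5 were called higher and 3 lower in three-week LL2 mice, against each of the other groups. The granule protein genes Mpo, Elane, Prtn3 and Ctsg were among the former, and the proliferation genes Mki67 and Top2a among the latter. No marker of any list was at 0 in all libraries. The part of these cells in the results that follow was not tested.

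Malat1 was the member with the largest change. Its level was lower in one-week LL2 mice than in naive mice by 1.87-fold and was 1.45-fold higher in three-week than in one-week LL2 mice. Neat1, Gas5 and Snhg12 passed the test in no comparison. Across the 4 members tested, 1 fell and 0 rose in one-week LL2 mice against naive mice, where 7.99% of all 12259 tested genes were called, 4.23% higher and 3.76% lower. No member was called in three-week LL2 mice against the same naive mice, where 21.4% of tested genes were, 12% higher and 9.42% lower. In the comparison of the weeks 1 member was called, as higher at 3 weeks, where 22.5% of tested genes were called, 13% higher and 9.56% lower. Groups stood apart without overlap of libraries for 3, 2 and 4 of the 4 members in these comparisons, against 53.2%, 59.6% and 63.9% of all tested genes. Calls rest on edgeR's quasi-likelihood test with Benjamini-Hochberg adjustment over all tested genes and a threshold of 0.05. Both comparisons with naive mice share the naive libraries.

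**Figure D1:**
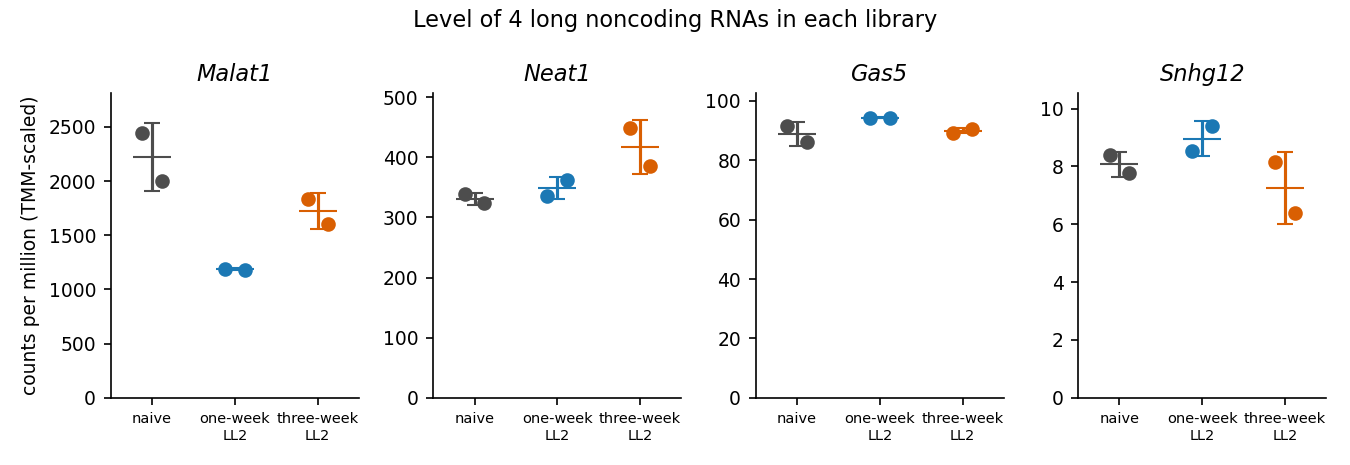
CPM (vertical axis, from 0) of Malat1, Neat1, Gas5 and Snhg12 in each library, with a panel per gene; points are libraries, and the horizontal mark with its bar is the mean ± SD of the 2 libraries of a group. Malat1 is lowest in both libraries of one-week LL2 mice, at 1191 and 1183 CPM, while the Gas5 libraries all lie between 86 and 94.4 CPM.

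Malat1 (ENSMUSG00000092341) is a gene of 1 long exon at chr19:5795690-5802672 of GRCm38, the build called mm10, on the minus strand, and is annotated as lincRNA. Neat1 (ENSMUSG00000092274) lies close by on the same strand, at chr19:5824708-5845478. Both long transcripts have no ordinary poly(A) tail. Their 3′ ends are protected by a triple helix between U-rich runs and a downstream A-rich tract, and in Malat1 an enzyme that processes tRNA cuts just after that tract and releases a small tRNA-like RNA. The ends are shown because they are the feature these RNAs share and most other long noncoding RNAs lack. The Malat1 stretch is chr19:5795922-5796075 and the Neat1 stretch chr19:5824708-5824807, both on the minus strand and written as DNA from the GENCODE M21 transcripts Malat1-201 and Neat1-201. Capitals mark the exact runs of at least 10 bases that the last 400 bases of both transcripts have in common.
Malat1: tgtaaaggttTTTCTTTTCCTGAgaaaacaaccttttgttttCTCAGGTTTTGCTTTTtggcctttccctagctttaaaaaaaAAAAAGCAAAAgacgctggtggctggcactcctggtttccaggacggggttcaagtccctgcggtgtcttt
Neat1: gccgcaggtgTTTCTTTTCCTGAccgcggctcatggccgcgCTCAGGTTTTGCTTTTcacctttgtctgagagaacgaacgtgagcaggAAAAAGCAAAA

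There were 3 such runs, in the same order in both transcripts. In order they were TTTCTTTTCCTGA, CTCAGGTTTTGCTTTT and AAAAAGCAAAA, with lengths of 13, 16 and 11 bases, and the last is part of the A-rich tract. Of 16980 annotated long noncoding transcripts of at least 400 bases, 2 (0.0118%) held all 3 runs in their last 400 bases on the transcript strand, namely these. The runs were taken from these 2, so that their own match was fixed. The search shows only that no other transcript held all 3. The single runs were held by 2, 2 and 27 transcripts, and their reverse complements by 2, 0 and 18. Part of the second run is the reverse complement of part of the last. A match is a description of letters and shows no structure.

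Malat1 had 2441 and 2003 CPM in naive mice, 1191 and 1183 CPM in one-week LL2 mice, and 1838 and 1607 CPM in three-week LL2 mice. Both naive libraries lay above both three-week libraries, and these above both one-week libraries, so that no groups overlapped. The means were 2222 ± 309.9, 1187 ± 5.95 and 1723 ± 162.9 CPM (SD, n = 2). In bulk RNA, fewer cells that hold a transcript and less of it per cell cannot be told apart. The log2 fold change of one-week LL2 against naive mice was -0.90 (SE 0.125, edgeR adjusted p = 0.00139), lower than that of all but 2.75% of tested genes. It kept its direction and its call under all 8 other settings and with any of the 6 libraries left out, between -1.04 and -0.76.

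Three-week LL2 mice lay between the other groups. Against naive mice the log2 fold change of Malat1 was -0.37 (SE 0.124, edgeR adjusted p = 0.0508), just short of the threshold. With DESeq2 on all libraries it was -0.39 and passed (DESeq2 adjusted p = 0.0116). Without naive replicate 2 it was -0.50 (edgeR adjusted p = 0.0233) and without three-week replicate 1 it was -0.46 (edgeR adjusted p = 0.0473), and both passed. Against one-week LL2 mice the log2 fold change was 0.54 (SE 0.124, edgeR adjusted p = 0.00747). This call was lost without one-week replicate 1 (0.52, edgeR adjusted p = 0.0698), without one-week replicate 2 (0.50, edgeR adjusted p = 0.0745) and with scaling by library totals alone (0.33, edgeR adjusted p = 0.0722). Library totals moved the median of all tested genes by -0.15 in three-week LL2 against naive mice and by -0.20 between the weeks. Taken relative to that median, Malat1 was at -0.40 and 0.56 under TMM and at -0.41 and 0.56 under library totals.

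Neat1 took another course. It had 338.3 and 323.8 CPM in naive mice, 336.3 and 362.2 CPM in one-week LL2 mice, and 448.7 and 386 CPM in three-week LL2 mice. The naive and one-week libraries overlapped, and both three-week libraries lay above all others. The log2 fold change was 0.08 (SE 0.116, edgeR adjusted p = 0.752) in one-week LL2 against naive mice and 0.33 (SE 0.116, edgeR adjusted p = 0.0568) in three-week LL2 against naive mice. Between the weeks it was 0.26 (SE 0.116, edgeR adjusted p = 0.132). The value at 3 weeks against naive mice passed with DESeq2 on all libraries (0.31, DESeq2 adjusted p = 0.043) and without three-week replicate 2 (0.44, edgeR adjusted p = 0.0403). The counts are per gene, so that the short isoform and the long isoform of Neat1, of which the long one builds paraspeckles, were not separated.

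**Figure D2:**
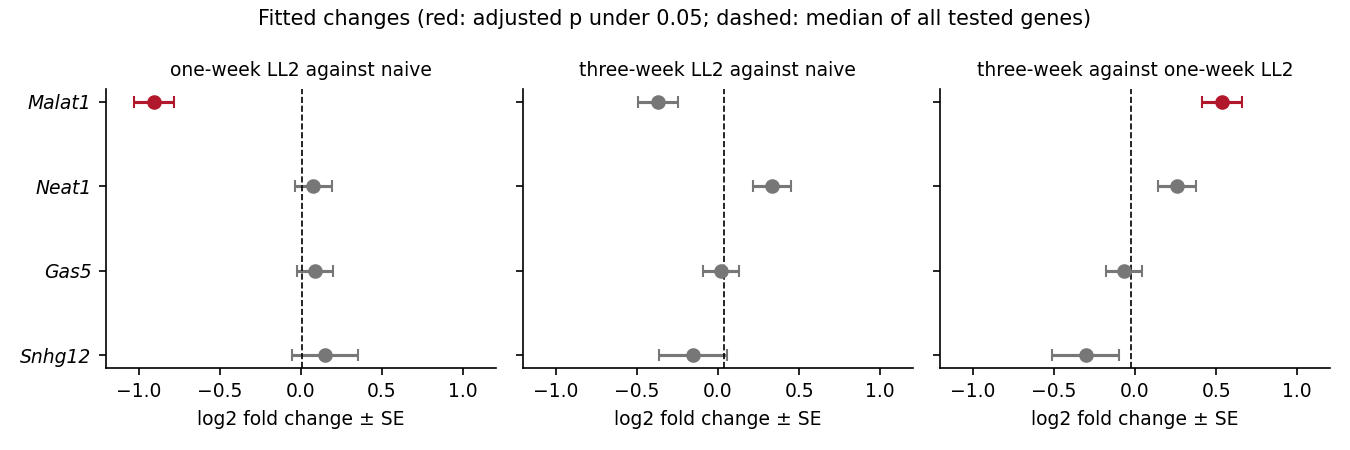
Log2 fold changes (horizontal axis) of the 4 members in 3 comparisons, with bars of 1 SE from edgeR; red points have an adjusted p under 0.05 and the dashed line is the median of all tested genes. Only Malat1 is red, at -0.90 in one-week LL2 against naive mice and at 0.54 between the weeks.

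A ratio of counts within a library does not depend on scaling between libraries. There were 13.9 and 16.2 Neat1 counts per 100 Malat1 counts in naive mice, 28.2 and 30.6 in one-week LL2 mice, and 24.4 and 24 in three-week LL2 mice. The 3 groups did not overlap, and both tumor-bearing groups lay above the naive group. Gas5 counts per 100 Malat1 counts were 3.75 and 4.3 in naive mice, 7.92 and 7.96 in one-week LL2 mice, and 4.86 and 5.64 in three-week LL2 mice, again without overlap. Against Neat1 the ratio of Gas5 was 27.1 and 26.6 per 100 in naive mice and 28.1 and 26 in one-week LL2 mice, which overlapped, and 19.9 and 23.5 in three-week LL2 mice, which lay lower. Malat1 itself stood apart between all groups, so that the separation of both ratios to Malat1 carries its change. The share of other gene pairs that stand apart was not counted. The ratios are given as values without a test.

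**Figure D3:**
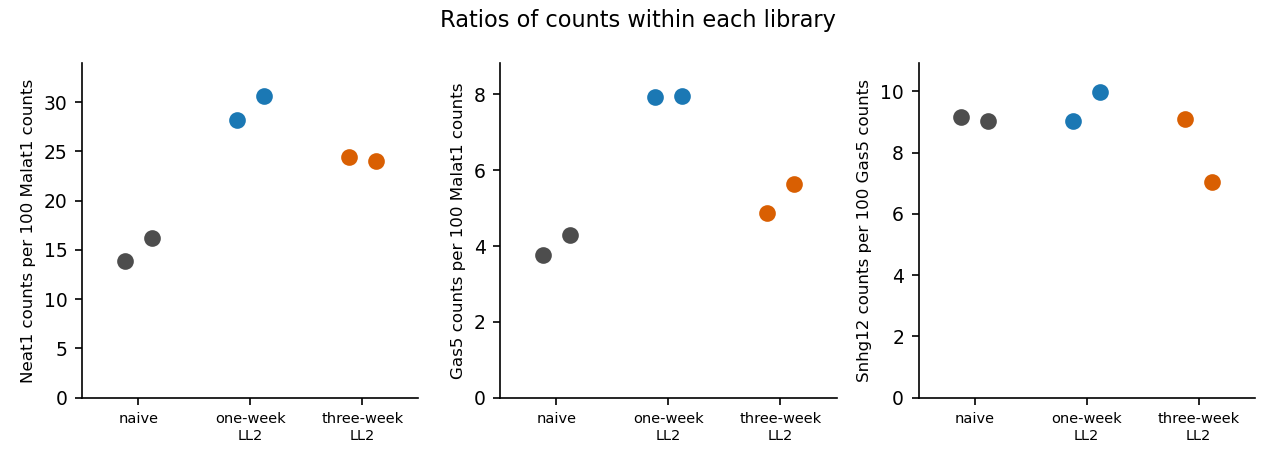
Counts of one member per 100 counts of another within each library (vertical axes, from 0), for Neat1 to Malat1, Gas5 to Malat1 and Snhg12 to Gas5; each point is a library. The Neat1 to Malat1 ratio runs from 13.9 to 16.2 in naive mice and from 24 to 30.6 in both groups of LL2 mice, while Snhg12 to Gas5 overlaps between groups.

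Gas5 (ENSMUSG00000053332, chr1:161034422-161038539, plus strand) and Snhg12 (ENSMUSG00000086290, chr4:132308623-132311024, plus strand) stand for the snoRNA hosts. Host genes of this kind often start with a C followed by a run of pyrimidines, as the genes of ribosomal proteins do. In the RNAs of ribosomal proteins this start lets the cell hold back translation when growth signals are low. The starts are shown for this reason, from RefSeq on GRCm38.p6, with 30 bases before and 30 from the first base of the RNA, and with CTTTC in capitals where it lay within 20 bases of the start. The Gas5 window, at the downstream of its RefSeq starts, is chr1:161035136-161035195 and the Snhg12 window chr4:132308648-132308707, both on the plus strand.
Gas5: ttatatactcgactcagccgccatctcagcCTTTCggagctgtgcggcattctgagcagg
Snhg12: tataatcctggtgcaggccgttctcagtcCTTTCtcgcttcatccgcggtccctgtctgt

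Both held CTTTC on the gene strand and neither held its reverse complement. In Gas5 it began at the first base of the annotated RNA. In Snhg12 it began 1 base earlier, so that the annotated RNA reads TTTCTCGC from its first base and lacks the initial C. The starts of Snhg1 and Snhg8, searched in the same way, did not hold CTTTC. The search leaves out other pyrimidine starts. From its first base the Snhg8 start reads CTCTTTGG, also a C followed by pyrimidines. Among 32851 RefSeq starts searched in the same way, 5.49% held CTTTC on the gene strand and 4.86% on the other, so that the letters alone are common. The upstream RefSeq start of Gas5 did not hold it.

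Gas5, growth arrest specific 5, had 91.6 and 86 CPM in naive mice, 94.4 and 94.2 CPM in one-week LL2 mice, and 89.4 and 90.6 CPM in three-week LL2 mice. The one-week libraries lay above all others by a narrow margin, and the naive and three-week libraries overlapped. The log2 fold change against naive mice was 0.09 (SE 0.112, edgeR adjusted p = 0.706) at 1 week and 0.02 (SE 0.113, edgeR adjusted p = 0.933) at 3 weeks. The value at 3 weeks changed sign under 6 of 8 other settings and in 3 of 6 fits with a library left out, and it has no direction. Between the weeks it was -0.07 (SE 0.112, edgeR adjusted p = 0.708). A p-value that misses the threshold does not show that the levels were equal.

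Snhg12 was the least abundant member. It had 8.38 and 7.77 CPM in naive mice, 8.53 and 9.39 CPM in one-week LL2 mice, and 8.14 and 6.38 CPM in three-week LL2 mice, from between 83 and 128 counts per library. The one-week libraries lay above all others and the remaining groups overlapped. The log2 fold change was 0.15 (SE 0.205, edgeR adjusted p = 0.725) in one-week LL2 against naive mice and -0.15 (SE 0.209, edgeR adjusted p = 0.659) in three-week LL2 against naive mice. Between the weeks it was -0.30 (SE 0.206, edgeR adjusted p = 0.317). Without three-week replicate 2 the value at 3 weeks against naive mice was 0.016. Snhg12 counts per 100 Gas5 counts lay between 9.03 and 9.97 in 5 libraries and at 7.04 in three-week replicate 2.

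The small RNAs inside the hosts were nearly absent from the counts. Whether these libraries retain RNAs this short was not tested, so that the counts are not read as levels of the snoRNAs. The table held 9 small RNA genes within Gas5, of which 7 had no count in any library, and the 9 summed to 156 counts over all libraries. Of these, 155 came from the snoRNA gene listed as Mir5117, which had 37 and 16 counts in naive mice, 3 and 13 in one-week LL2 mice, and 55 and 31 in three-week LL2 mice. The 4 snoRNA genes within Snhg12 summed to 115 counts, 66 of them from Snora44 and 46 from Snora61. Reads that fall on a snoRNA can also come from the unspliced host, and the sources used here do not say how the counting treated them or whether it used strand. The small RNA genes annotated within Malat1 (1 gene) and Neat1 (3 genes) had no count, which allows up to 3 counts in a library.

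Of the members not analysed, Snhg1 lies at chr19:8723475-8726443, Snhg8 at chr3:123507552-123508404 and Kcnq1ot1 at chr7:143203458-143296549. The 8 snoRNA genes within Snhg1 summed to 1 count over all libraries, and Snora24, within Snhg8, had 12 counts, 8 of them in one-week replicate 1. Kcnq1, the potassium channel gene that Kcnq1ot1 overlaps on the other strand, had 6 counts over all libraries. Of 15 genes of the imprinted domain around Kcnq1ot1, 8 were tested. In one-week LL2 against naive mice 0 of them were called by edgeR, where 7.99% of all tested genes were. In three-week LL2 against naive mice, where 9.42% of all tested genes fell, 2 of the 8 fell.

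These were Tssc4, a splicing-related gene, and Ascl2, an imprinted transcription factor. Tssc4 had 33.8 and 35.6 CPM in naive mice, 27.4 and 26.9 CPM in one-week LL2 mice, and 21.7 and 17.1 CPM in three-week LL2 mice, without overlap of groups. Its log2 fold change at 3 weeks against naive mice was -0.84 (SE 0.149, edgeR adjusted p = 0.00142). Ascl2 was low throughout, with 4.35 and 5.64 CPM in naive mice and 1.4 and 2.23 CPM in three-week LL2 mice (log2 fold change -1.46, SE 0.359, edgeR adjusted p = 0.0115), and lost the call without naive replicate 2 or three-week replicate 1. The median over the 8 genes was -0.18, beside 0.03 over all tested genes.

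Compared per kilobase of exon, Malat1 was the highest member in every library. Its level was 318 ± 44.4 CPM per kb in naive libraries, 170 ± 0.851 in the one-week group and 246.7 ± 23.3 in the three-week group (SD, n = 2). Gas5 followed with means between 23.6 and 25.1 CPM per kb, then Neat1 with 15.9 to 20.1 and Snhg12 with 3.02 to 3.73. Each neighbour in this order was apart from the next in all 6 libraries. The place of Neat1 depends on its isoforms. Per kilobase of the short transcript of 3004 bases in place of the 20771 bases of the gene, it had 108 to 149.4 CPM per kb and came second.

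Among the 4238 long noncoding RNA genes with a row, Malat1 stood in place 3 by summed counts, Neat1 in place 5, Gas5 in place 24 and Snhg12 in place 134. The first place was taken by Gm42418, which lies in a repeat of ribosomal RNA and held between 1.66% and 2.64% of all counts, with the highest shares in naive mice. Malat1 held between 0.124% and 0.257%. Of the 639 long noncoding RNA genes tested, 9.86% rose and 2.03% fell in one-week LL2 against naive mice, with a median log2 fold change of 0.21. More of these genes rose than fell, while Malat1 fell, and 5.32% of them had a lower value. The most abundant ones went both ways. Among the 5 with the most counts, Gm42418 (-0.44) and Gm26830 (-0.22) also lay below 0 and were not called. Gm21917 (0.52, called) and Neat1 lay above 0. Of the 639 genes, 5.48% rose and 7.04% fell at 3 weeks against naive mice, with a median of 0.06. Between the weeks 3.76% rose and 9.39% fell, with a median of -0.26.

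**Figure D4:**
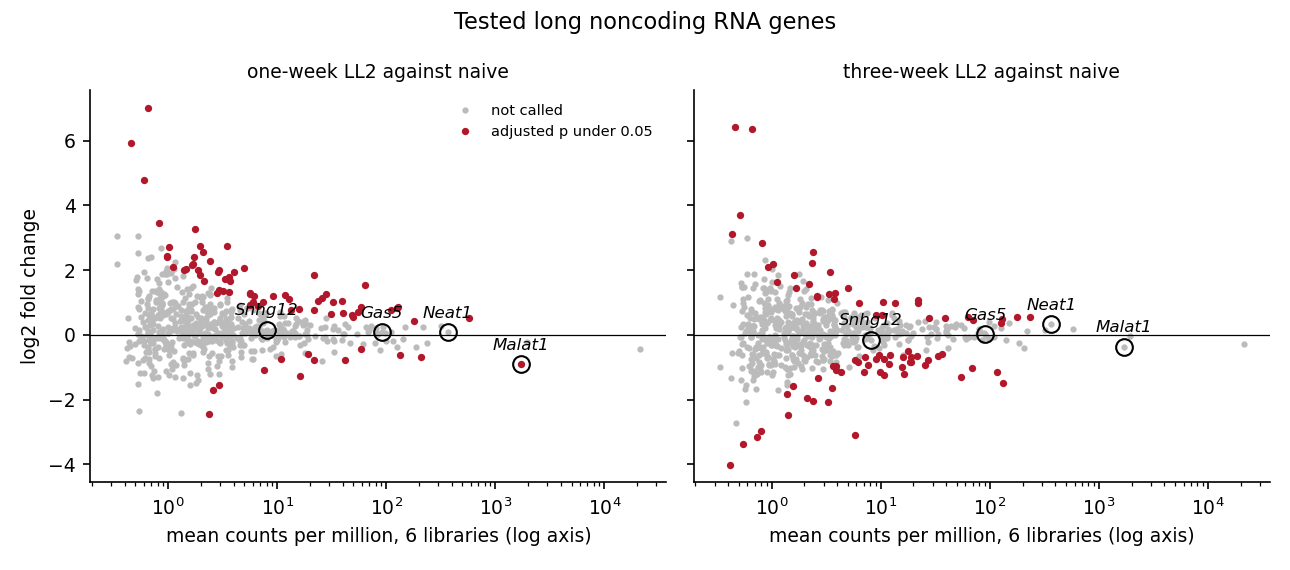
Log2 fold change (vertical axis) against mean CPM over 6 libraries (horizontal log axis) of the 639 tested long noncoding RNA genes, in one-week LL2 (left) and three-week LL2 (right) against naive mice; red points have an adjusted p under 0.05 and circles mark the members. On the left Malat1 is the circled red point at -0.90, and the other members lie between 0.08 and 0.15. On the right no member is red, with Malat1 at -0.37 and Neat1 at 0.33.

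Other well-known long noncoding RNAs were mostly not called. Of 24 listed, 13 were tested. In one-week LL2 against naive mice, where 3.76% of all tested genes fell, 1 of these fell. This was Xist, the RNA that coats the inactive X chromosome, with 271.9 and 250.1 CPM in naive mice, 126.5 and 196.6 CPM in one-week LL2 mice, and 223.9 and 168.8 CPM in three-week LL2 mice. Its log2 fold change was -0.69 (SE 0.183, edgeR adjusted p = 0.0359), and the call was lost without naive replicate 1, naive replicate 2 or one-week replicate 1 and with DESeq2 or library totals.

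At 3 weeks the changes were in other genes of this list. Against naive mice 1 rose and 2 fell, where 12% of all tested genes rose and 9.42% fell. Dleu2, host of the miR-15a and miR-16-1 cluster, had 17.4 and 20.9 CPM in naive mice, 19.9 and 17.2 CPM in one-week LL2 mice, and 8.06 and 11.1 CPM in three-week LL2 mice. Both three-week libraries lay below all others (log2 fold change against naive mice -0.998, SE 0.191, edgeR adjusted p = 0.00235). Gm14005 fell likewise, from 40 and 38.1 CPM to 27.9 and 24.5 CPM (-0.58, SE 0.13, edgeR adjusted p = 0.00705, lost without three-week replicate 2). Mir22hg, host of miR-22, had 125.4 and 120.3 CPM in naive mice, 103.1 and 86.7 CPM in one-week LL2 mice, and 156.2 and 163.6 CPM in three-week LL2 mice. Like Malat1, it was lowest at 1 week in both libraries. Its rise against naive mice at 3 weeks (0.38, SE 0.12, edgeR adjusted p = 0.0379) was lost with any 1 of the 6 libraries left out, while the rise between the weeks (0.75, SE 0.12, edgeR adjusted p = 0.00063) was kept in all of these fits.

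Of the partners of Neat1 in paraspeckles, only single genes are described here. Hnrnpk, an abundant RNA-binding protein of these bodies, had in one-week LL2 against naive mice a log2 fold change of -0.19 (edgeR adjusted p = 0.336). At 3 weeks Tardbp, which encodes the RNA-binding protein TDP-43, fell against naive mice (-0.39, SE 0.122, edgeR adjusted p = 0.0358), a call lost without any 1 of the 4 libraries compared. Between the weeks Hnrnph3, a splicing regulator, was lower at 3 weeks (-0.76, SE 0.158, edgeR adjusted p = 0.00378).

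Of 16 genes for nuclear speckle proteins, the surroundings of Malat1, 0 rose and 2 fell at 1 week against naive mice and 0 rose and 3 fell at 3 weeks. Of all tested genes 3.76% fell at 1 week and 9.42% at 3 weeks. U2af2, which binds the pyrimidine tract before the 3′ splice site, had 173 and 178.7 CPM in naive mice, 113.9 and 121.4 CPM in one-week LL2 mice, and 136.3 and 111.5 CPM in three-week LL2 mice. It fell in both comparisons, by 0.58 (SE 0.123, edgeR adjusted p = 0.0135) and by 0.50 (SE 0.123, edgeR adjusted p = 0.0109) on the log2 scale. The first of these calls was lost without any 1 of the 4 libraries compared, and the second without naive replicate 2 or three-week replicate 2. The others were Acin1 at 1 week (-0.49, edgeR adjusted p = 0.019), a member of complexes on spliced RNA, and at 3 weeks the SR protein gene Srsf7 (-0.54, edgeR adjusted p = 0.0204) and Pnisr (-0.40, edgeR adjusted p = 0.0445). Acin1 lost the call without naive replicate 1 or either one-week library, Srsf7 without naive replicate 1 or three-week replicate 1, and Pnisr without any 1 of the 4 libraries compared. With library totals 8 in place of 3 genes of this list fell at 3 weeks. The list medians of -0.06 and -0.21 stood beside 0.01 and 0.03 over all tested genes.

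Nonsense-mediated decay clears spliced snoRNA hosts. Of the 9 of its factors reported here, 2 rose and 3 fell in one-week LL2 against naive mice, with a median of -0.50. Of all tested genes 4.23% rose and 3.76% fell there. With DESeq2 on all libraries 1 of the 9 factors rose and 2 fell. Upf3b, which links the pathway to exon junctions, rose: it had 71.7 and 67.9 CPM in naive mice, 113.4 and 118.5 CPM in one-week LL2 mice, and 61.8 and 70.3 CPM in three-week LL2 mice. Its log2 fold change was 0.73 (SE 0.119, edgeR adjusted p = 0.00336) at 1 week against naive mice and -0.81 (SE 0.119, edgeR adjusted p = 0.00034) between the weeks, and both calls were kept with any library left out. Smg9, a partner of the kinase Smg1, also rose (0.52, edgeR adjusted p = 0.0369), and was lost without any 1 of the 4 libraries compared. Smg1 itself fell (-0.59, edgeR adjusted p = 0.0251), and lost the call without naive replicate 1 or either one-week library and with library totals, under which 0 of the 9 genes were called lower. At 3 weeks against naive mice 0 rose and 1 fell, Smg8 (-0.51, edgeR adjusted p = 0.0276). Smg8 lost the call without either naive library or three-week replicate 2 and with DESeq2 on all libraries.

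**Figure D5:**
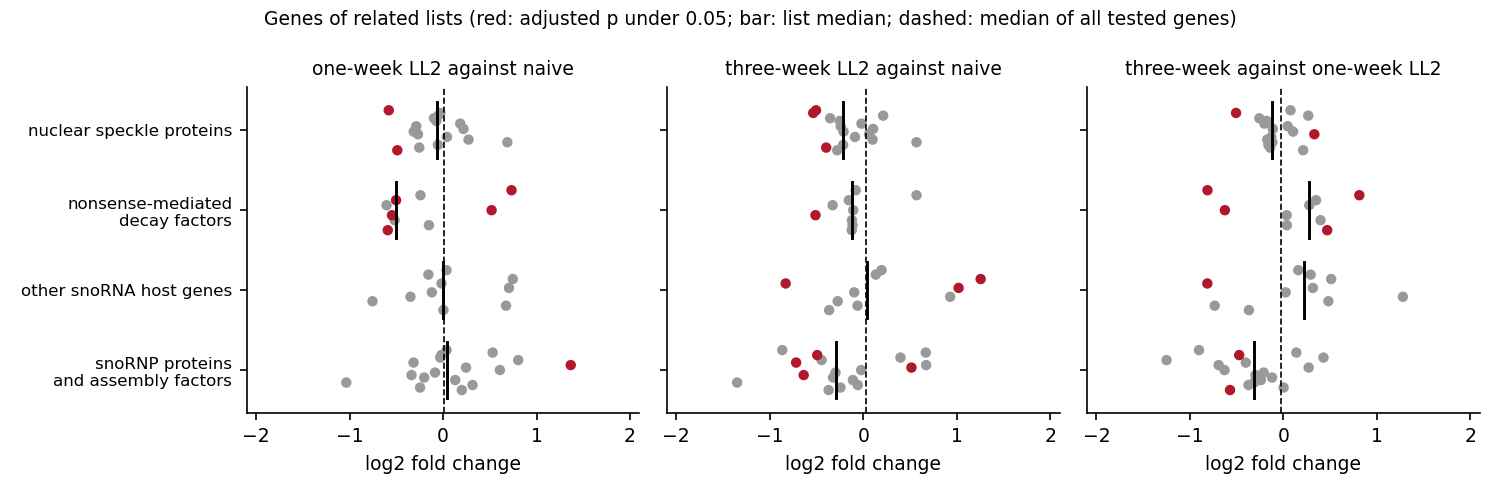
Log2 fold changes (horizontal axis) of the tested genes of 4 related lists in 3 comparisons; each point is a gene, red where its adjusted p was under 0.05, the short bar is the list median and the dashed line the median of all tested genes. The decay factors have the lowest list median, -0.50, in one-week LL2 against naive mice, where no other snoRNA host gene is red.

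Of 17 other snoRNA host genes, 10 were tested. At 1 week against naive mice 0 of the 10 were called by edgeR, where 7.99% of all tested genes were. With DESeq2 0 were called as well. At 3 weeks against naive mice 2 rose and 1 fell, where 12% of all tested genes rose and 9.42% fell. With DESeq2 on all libraries 1 rose and 1 fell. Snhg5 had 20.2 and 23.9 CPM in naive mice, 22.7 and 20.9 CPM in one-week LL2 mice, and 11.6 and 13.2 CPM in three-week LL2 mice. Both three-week libraries lay below all others, with a log2 fold change of -0.83 (SE 0.162, edgeR adjusted p = 0.00267) against naive mice. Snhg3 had 7.51 and 6.13 CPM in naive mice, 11.5 and 10.7 CPM in one-week LL2 mice, and 16 and 11.8 CPM in three-week LL2 mice. Its rise against naive mice was 0.71 (SE 0.209, edgeR adjusted p = 0.0562) at 1 week and passed with 1.02 (SE 0.208, edgeR adjusted p = 0.00359) at 3 weeks. Snhg6 (1.26, SE 0.421, edgeR adjusted p = 0.0494) rested on 1.9 to 6.61 CPM and lost the call under 7 of 8 other settings. The called hosts thus lay in both directions at 3 weeks, as did called genes in general, and Gas5 and Snhg12 did not pass the test in either.

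Of 17 proteins of snoRNA particles and their assembly, 1 rose and 0 fell at 1 week against naive mice, and 1 rose and 3 fell at 3 weeks, with list medians of 0.04 and -0.30. With DESeq2 on all libraries these counts were 0 and 0, and 0 and 1. Of all tested genes 4.23% rose and 3.76% fell at 1 week, and 12% rose and 9.42% fell at 3 weeks, by edgeR. Snu13, a core protein that binds box C/D snoRNAs, had 46.2 and 49.9 CPM in naive mice, 44.4 and 50.4 CPM in one-week LL2 mice, and 34.6 and 33.6 CPM in three-week LL2 mice (log2 fold change against naive mice -0.49, SE 0.128, edgeR adjusted p = 0.0153). This call was lost without naive replicate 2 or either three-week library. The gene that rose at 1 week was Rrp9, a protein of the U3 particle (1.37, SE 0.349, edgeR adjusted p = 0.0312), at between 1.58 and 6.2 CPM in all libraries. It lost the call without naive replicate 1 or either one-week library and with DESeq2 on all libraries.

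Genes of cytosolic ribosomal proteins were gathered by symbol after the values had been seen. Of 80 tested, 21 rose and 1 fell at 1 week and 47 rose and 0 fell at 3 weeks against naive mice, with medians of 0.27 and 0.46. Of all tested genes 4.23% and 12% rose. Many of them share reads with pseudogenes, which makes single members uncertain. With library totals 28 rose and 1 fell at 1 week and 31 rose and 0 fell at 3 weeks. Gas5 and Snhg12 had log2 fold changes of 0.02 and -0.15 at 3 weeks against naive mice.

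Genes beside the members on the chromosome were read for shared movement. Of 10 tested neighbours of Malat1 and Neat1, 0 were called by edgeR at 1 week against naive mice, with a median of -0.08. At 3 weeks against naive mice 1 rose, the calpain gene Capn1, from 76.9 and 88.2 CPM in naive mice to 108.7 and 116.9 CPM (0.45, SE 0.12, edgeR adjusted p = 0.0176), a call lost without naive replicate 1 or three-week replicate 2 and with library totals. Of 9 tested neighbours of the snoRNA hosts, 0 were called by edgeR at 1 week and 2 fell at 3 weeks against naive mice. Of all tested genes 7.99% were called at 1 week, and 12% rose and 9.42% fell at 3 weeks. Rcc1, the exchange factor of the GTPase Ran, had 34 and 35.4 CPM in naive mice and 20.4 and 14.5 CPM in three-week LL2 mice (-0.99, SE 0.164, edgeR adjusted p = 0.000868). Gmeb1, the other, was at -0.41 (edgeR adjusted p = 0.0398) and lost the call without any 1 of the 4 libraries compared.

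The tested genes with a course most like that of each member were found by Pearson's r of log2 CPM over the 6 libraries, which share depth and group, so that r is a description without a test. For Malat1 they were Mdga2 (r = 0.998), Rock1 (r = 0.998) and Rrbp1 (r = 0.996). Rock1, a kinase that drives contraction of the cell rear, had 234 and 217.7 CPM in naive mice, 171.2 and 168.8 CPM in one-week LL2 mice, and 204.8 and 193.6 CPM in three-week LL2 mice. Rrbp1, a ribosome-binding protein of the endoplasmic reticulum, had 156.8 and 137.1 CPM, 81.9 and 78.9 CPM, and 121 and 111.3 CPM in the same order. Both were picked for their likeness to Malat1, so that the shared order without overlap of groups follows from the choice.

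For Neat1 the most alike genes were Pdgfb (r = 0.996), Nt5dc1 (r = 0.995) and BC005561 (r = 0.988). All were highest in three-week replicate 1, as Neat1 was, which again follows from the choice. For Gas5 they were Vwa1 (r = 0.999), Nudt21 (r = 0.992) and Dpy19l3 (r = 0.99), and for Snhg12 they included Cmc1 (r = 0.992) and Trib2 (r = 0.988). The genes most like Gas5 and Snhg12 had at most 8.87 CPM in any library, and with levels that differ little between groups these likenesses follow single libraries. Of all tested genes, 106 had r over 0.95 with Malat1, 51 with Neat1, 25 with Gas5 and 20 with Snhg12.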

How the data were processed

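Total RNA of Ly6G+ bone marrow cells was sequenced in 6 libraries, 2 for each of 3 groups. According to the submitters' processing notes the authors used Bowtie2, RSEM 1.2.31 and DESeq2 with mm10, and the methods name the Ensembl transcriptome. Expected counts were deposited for each gene; they are whole numbers and are not scaled between libraries. Whether the counting used strand is not given in the sources used here. Symbols, positions and lengths came from GENCODE M21 (GRCm38), which matched 37570 of 38887 identifiers.

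Counts were filtered with filterByExpr, which left 12259 genes, scaled by TMM and compared by edgeR 4.0.16 (quasi-likelihood test, R 4.3.3), with all 6 libraries in one model and the group as the only factor. Adjusted p-values use the Benjamini-Hochberg method. The test was tried on simulated data. DESeq2 1.42.0, other scalings and filters, fits of the groups compared, a block for the replicate number and fits without each library were the alternatives. Libraries of a group differed by more than counting noise (chi-square over its degrees of freedom 10.7, 9.04 and 12.6). The log2 CPM for correlations used a prior count of 2.

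The members and lists were chosen with earlier results of these data known. Named were all members, in each list and comparison up to 4 called genes with the smallest adjusted p and up to 2 others with the most counts, and the 3 genes most like each member, and of these only some are given. Some genes of the paraspeckle and decay lists and of the likeness rule are not reported here, and list counts and medians leave them out. RPKM values were not used here. Promoter starts came from RefSeq on GRCm38.p6.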

Additional observations from a re-analysis of the deposited data

Results flagged for a closer look

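A direct test of three-week against one-week LL2 mice is also the test of whether the changes against naive mice differ between the 2 times. It passed for Malat1 and for 14 other named genes (edgeR adjusted p under 0.05). Genes of the lists could be named because they passed this very test, so that their number is no result. Of all tested genes 22.5% passed it, 13% higher and 9.56% lower at 3 weeks. For Malat1 the log2 difference was 0.54, with all 4 libraries of LL2 mice below both naive libraries and the one-week libraries lowest. Differences above 0 were also found for Smg1 (0.47), Mir22hg (0.75) and Capn1 (0.47). Differences below 0 were found for Upf3b (-0.81), Smg9 (-0.63), Srsf7 (-0.51), Dleu2 (-0.96), Gm14005 (-0.74), Snhg5 (-0.81), Snu13 (-0.47), Ascl2 (-1.58), Tssc4 (-0.49), Rcc1 (-0.74) and Hnrnph3 (-0.76). With a library left out, Malat1, Smg1, Smg9, Srsf7, Snu13, Ascl2, Tssc4, Capn1 and Rcc1 lost this call at least once. For Malat1 this was without either one-week library, for Smg1 without any of the 4 libraries compared, for Srsf7 without either one-week library or three-week replicate 1, for Tssc4 and Capn1 without either one-week library or three-week replicate 2, and for Snu13 without one-week replicate 2 or either three-week library. A single library decided the call of Smg9 (three-week replicate 1), Ascl2 (one-week replicate 1) and Rcc1 (three-week replicate 2). Smg1 and Tssc4 also lost it with both DESeq2 fits, Srsf7 and Snu13 with DESeq2 on the groups compared, and Malat1, Smg1 and Capn1 with library totals. The other 6 genes kept it in all these fits. No cause was tested. Groups of 2 libraries allow no check for a single library that lies far from the others.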

How the results depend on the processing

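Of 168 refits of the members, 144 kept their direction and their side of the threshold. The log2 fold change of Malat1 in three-week LL2 against naive mice, -0.37 and not called, was called with DESeq2 on all libraries (-0.39) or on the groups compared (-0.40), with DESeq2 size factors (-0.39), library totals (-0.52), no filter (-0.40), a filter at 1 CPM (-0.37) and the replicate number as a block (-0.36, edgeR adjusted p = 0.0439), and ran from -0.50 to -0.25 with a library left out. Between the weeks Malat1 was not called with library totals (0.33) and ran from 0.45 to 0.64 with a library left out. Neat1 in three-week LL2 against naive mice was called with DESeq2 on all libraries (0.31) and ran from 0.23 to 0.44 with a library left out. Gas5 there turned from 0.02 to -0.0017 and -0.0098 with DESeq2 (on all libraries, then only on the groups compared), -0.018 with edgeR on the groups compared, -0.0059 with DESeq2 size factors, -0.13 with library totals and -0.010 with no filter, and ran from -0.019 to 0.039 with a library left out. Snhg12 there ran from -0.33 to 0.016. The cause was not tested.

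Called genes numbered 1537 in place of 979 with no filter at 1 week and 1668 in place of 2627 with DESeq2 on the groups compared at 3 weeks. With a library left out they ran from 147 to 1145 at 1 week, from 1362 to 2392 at 3 weeks and from 1502 to 2725 between the weeks, where fewer samples were fitted. The next counts are of genes of the lists, without the members, the cell type markers and the ribosomal protein genes. With library totals 5 in place of 9 were called at 1 week. At 3 weeks 1 was higher and 25 lower in place of 5 and 15. Between the weeks 1 was higher and 21 lower in place of 6 and 13. At 1 week 52.9% of calls were higher, against 42% with DESeq2 and 68.6% with library totals; at 3 weeks 56%, against 34.7% with library totals; and between the weeks 57.5%, against 28.7% with library totals. Of 48 member levels under 2 other scalings, 15 moved by more than the SD of their group, which for Gas5 in one-week LL2 mice was 0.163 CPM.

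Same-numbered libraries had deviations from their group means that correlated at 0.0101, 0.0364 and 0.0379 across genes, so that the numbers do not pair the libraries, and the replicate block changed no other call of a member. With 2 libraries in each group and Snhg12 at about 100 counts, small changes of this gene were not detectable at this depth.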
